A study of Mus musculus with 25 samples.

Results

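The cells described here are the dendritic-like cells of the injured mouse spinal cord. They are the cells given code 3 in the cell type column of the authors' deposited table, joined by barcode to the raw count matrix of each library. There were 2712 such cells among 30958 cells in all (8.76%), and they are also the whole of the authors' cluster 15. Among the other cells, 12841 carry code 2 (macrophages and monocytes by their leading genes, called macrophages here), 13289 carry code 1 (microglia) and 2116 carry code 4 (neutrophil-like cells). Of the code 2 cells, 123 are in cluster 2 and 348 in cluster 3, where the remaining cells carry code 1.

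The study profiled single myeloid cells from the lesion centre of mice after spinal cord injury, or after laminectomy alone as the control, at 1, 2, 3, 10 and 21 days (D1 to D21). Tissue of 1 to 3 mice was pooled into each of 25 libraries, so the library is the replicate, and p-values measure the spread between libraries. Cells were freed of myelin, sorted by fluorescence and captured in droplets for 3′ counting of unique molecular identifiers (UMIs). All mice carried Cx3cr1CreERT2, an inducible Cre with a yellow reporter (YFP) at the fractalkine receptor locus, and every sort took YFP-positive cells, so dendritic cells that do not express Cx3cr1 are not expected among those captured.

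In Cx3cr1CreERT2:R26tdTomato mice, which also carry a red reporter (RFP) that Cre turns on, RFP+/YFP+ cells were sorted as resident and RFP-/YFP+ cells as infiltrating. In Cx3cr1CreERT2 mice without the red reporter all YFP+ cells were taken, and these libraries are called mixed. Mixed libraries therefore differ from the others in both sort and strain, while resident and infiltrating libraries share a strain. The age of the mice is not given in the sources used here. One library at day 3 has an infiltrating title and the resident sort label (D3_conflict 1), and it enters no main fit. Another, D2_infiltrating 1, is labelled female and carries the authors' code for male libraries.

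Dendritic-like cells were deep: their median was 11361 UMIs per cell, against 9144 in macrophages, 3062 in microglia and 2154 in neutrophil-like cells. The 9 infiltrating or mixed libraries with at least 20 dendritic-like cells were fitted (D1_infiltrating 1 and 2, D2_infiltrating 1, D2_mixed 2, D3_infiltrating 1, D3_mixed 3, D10_infiltrating 1 and 2, D21_infiltrating 1). They held 25 to 1265 such cells and 306986 to 15473960 UMIs from them. D3_infiltrating 1 alone held 1265 of the 2712 cells. D3_mixed 3 stood apart, with a median of 3449 UMIs per dendritic-like cell where the other 8 ranged from 9168 to 13112. Both day 10 libraries in the fit were in sequencing pools of the deposited table that hold no fitted library of day 1, 2 or 3, so day 10 and pool cannot be told apart in that fit. Of the 2712 cells, 27 had a barcode that also occurs in another library, out of 127 barcodes shared between libraries in all.

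Dendritic cells take up material, cut it into peptides and show the peptides to CD4 T cells on MHC class II molecules. The class II chains H2-A and H2-E are built in the endoplasmic reticulum around the invariant chain, which is the product of Cd74. In the endosome the invariant chain is degraded and H2-DM exchanges its last fragment for an antigen peptide, while H2-O holds H2-DM back. The whole set is switched on by the co-activator Ciita, which binds no DNA itself and is held by factors that sit on the X and Y boxes of class II promoters. In the healthy cord such cells are few and lie mainly in the meninges. After injury, monocytes that enter the lesion can also acquire class II and the lectin Cd209a.

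The letters of the X or Y box can be read in the promoters of some of these genes. The windows below are those, among the class II genes looked for that were higher than in macrophages in every library, that hold the Y box core, alone or with the X box. They come from RefSeq (GRCm38.p6), cover the 100 bases from 110 to 11 before the start of transcription, and are written 5′ to 3′ on the strand of the gene. Capitals mark TGATTGG, the core of the Y box, and AACNNATGA, the core of a form of the X box.

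H2-Aa (chr17:34287834-34287933, minus strand): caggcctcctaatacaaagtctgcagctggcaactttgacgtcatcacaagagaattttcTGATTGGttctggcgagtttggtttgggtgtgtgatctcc
H2-Eb1 (chr17:34305757-34305856, plus strand): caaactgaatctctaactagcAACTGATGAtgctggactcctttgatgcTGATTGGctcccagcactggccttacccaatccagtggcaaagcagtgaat
H2-DMb1 (chr17:34153081-34153180, plus strand): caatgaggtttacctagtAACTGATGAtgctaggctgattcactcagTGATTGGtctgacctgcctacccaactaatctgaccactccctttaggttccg
H2-DMb2 (chr17:34145139-34145238, plus strand): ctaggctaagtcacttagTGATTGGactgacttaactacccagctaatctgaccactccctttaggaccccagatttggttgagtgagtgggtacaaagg
H2-Oa (chr17:34092269-34092368, plus strand): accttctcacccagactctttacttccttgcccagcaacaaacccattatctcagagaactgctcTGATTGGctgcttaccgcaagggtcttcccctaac
H2-Ob (chr17:34238795-34238894, plus strand): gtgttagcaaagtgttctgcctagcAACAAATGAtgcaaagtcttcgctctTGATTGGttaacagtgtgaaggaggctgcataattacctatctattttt

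Both motifs were searched on both strands, and they do not overlap each other. By this choice TGATTGG lies in each of the 6 windows, with its first base 45 to 92 bases before the start. AACNNATGA lies upstream of it in H2-Eb1, H2-DMb1 and H2-Ob, with 19, 20 and 17 bases between the motifs. Of 32851 RefSeq windows of this length, 1560 held TGATTGG (4.75%) and 313 held AACNNATGA (0.953%). Both were in 19 windows (0.0578%), among them those of H2-DMb1, H2-Eb1 and H2-Ob. TGATTGG is also in the window of H2-Eb2, 102 bases before the start, a gene with few UMIs here (0.648 CPM) that was higher in 5 of the 9 libraries. Of the 14 genes looked for, 11 had a window in the table, and neither motif was found in those of H2-DMa, Ctss, Cd209a and Ccl17. A match is a description of the letters and not a measured binding site.

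The cell type label was checked against its 8 markers. Values are UMIs of a gene per 1000000 UMIs (CPM) of the summed cells of 1 type in 1 library. H2-Aa, the alpha chain of H2-A, stood at 7857 and 4796 CPM in D1_infiltrating 1 and 2, 5663 and 8489 in D2_infiltrating 1 and D2_mixed 2, 9581 and 7056 in D3_infiltrating 1 and D3_mixed 3, 6549 and 14207 in D10_infiltrating 1 and 2, and 14333 in D21_infiltrating 1. Macrophages of the same 9 libraries had 83.1 to 1514 CPM of H2-Aa. Every dendritic-like value was above every macrophage value.

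Cd74 had 16679 to 45383 CPM in dendritic-like cells of the 9 libraries and 452 to 4842 in the macrophages. At the level of cells, 86.4% of dendritic-like cells had a UMI of H2-Aa, against 17.4% of macrophages and 2.62% of microglia. After each cell was thinned to 1000 UMIs, with 15 dendritic-like and 57 macrophage cells below that depth left out, the shares were 82.6% and 10.7%. The thinned share of cells with Ciita was 14.4% against 0.441%, and that of Klrd1, the CD94 chain of lectin-like receptors, was 29.9% against 0.396%. Flt3 and Zbtb46, the growth factor receptor and the transcription factor of the dendritic lineage, had a UMI in 38.9% and 21.8% of dendritic-like cells and in 2.73% and 0.506% of macrophages. After thinning these shares were 6.71% and 2.67% against 0.341% and 0.0572%. Of the 10 genes in the list of the dendritic lineage, 5 were measured at 50 CPM, and 1 of these, Itgax, was higher in all 9 libraries. Below 50 CPM, Flt3, Zbtb46, Dpp4, Batf3 and Irf4 were also higher in all 9. Irf8 had a UMI in 45.8% of dendritic-like cells and 67.7% of macrophages (10.1% and 17.0% after thinning). Of the 8 markers, 7 were higher than in macrophages in all 9 libraries, and Ccl17 was high in some only.

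**Figure D1:**
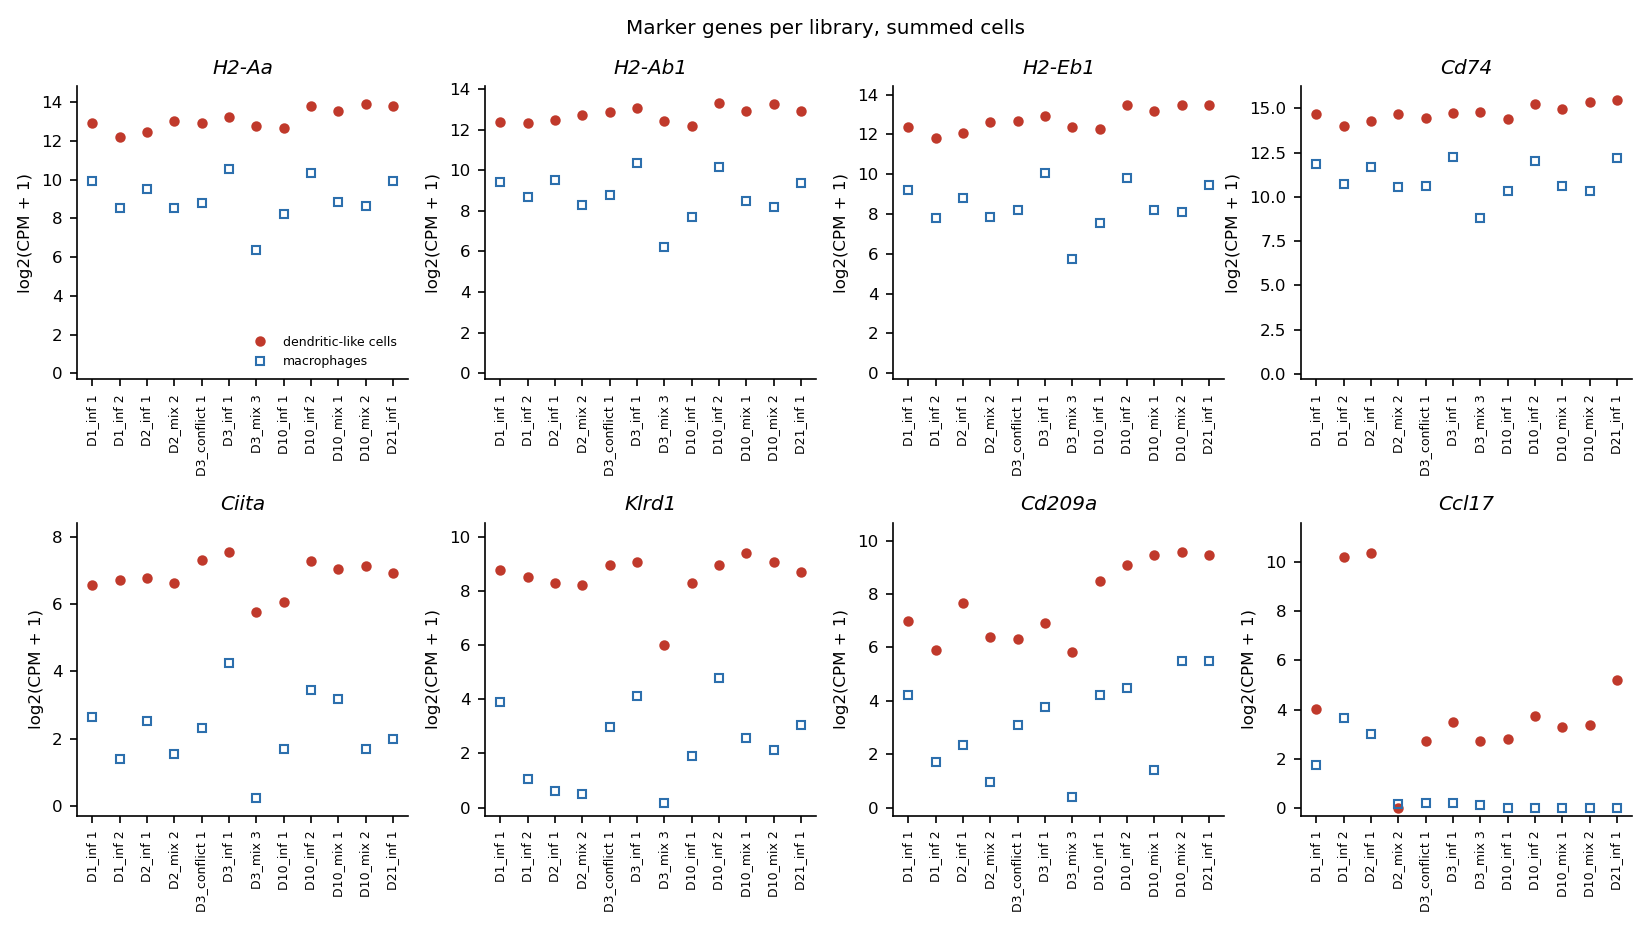
Each panel is 1 marker gene. The vertical axis is log2(CPM + 1) of cells summed per library, and each position on the horizontal axis is 1 library in order of time. Filled circles are dendritic-like cells and open squares macrophages of the same library. The 4 class II genes and Ciita stay above the macrophages throughout, Klrd1 is lowest in D3_mixed 3 (64.3 CPM), and Ccl17 is high in D1_infiltrating 2 (1166 CPM) and D2_infiltrating 1 (1298 CPM).

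Because the cell types were coded from these genes, the level of a gene in dendritic-like cells against macrophages is given as a description, with no test. The measure is the log2 ratio of CPM + 1 within a library, summarised as the median over the 9 libraries. Of 3017 genes with a median of at least 50 CPM in either type, 450 were higher in dendritic-like cells in all 9 libraries (14.9%) and 430 were lower in all 9 (14.3%). The median gene had a log2 ratio of 0.03.

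Several class II genes were among those with the largest ratios. Among the chains, the median log2 ratio was 4.0 for H2-Eb1 (range 2.86 to 6.64), 3.70 for H2-Aa and 3.58 for H2-Ab1. Cd74 stood at 3.27 and Ciita at 4.37. The peptide exchanger H2-DM had 4.61 for H2-DMb2, 3.20 for H2-DMb1 and 2.76 for H2-DMa, and its brake had 4.74 for H2-Oa. Of 12 measured genes in the list of the class II pathway, 10 were higher in all 9 libraries, with a median of 3.43 for the list. The other two are endosomal proteases, and both were lower in all 9: Ctss, which trims the invariant chain, had -0.68, and Lgmn had -2.54. The presenting complex and these proteases thus differed from macrophages in opposite directions.

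Some lymphoid receptor genes were also among the largest ratios. Klrd1 had the largest median log2 ratio, 5.85 (range 4.18 to 7.74), with a median of 367 CPM in dendritic-like cells and 2.73 in macrophages. Cd7, an immunoglobulin-family receptor, had 5.26, but its range ran from 0.19 to 6.43. Klrk1, the NKG2D receptor, had 4.28, with 89.9 against 1.73 CPM. Of 14 markers of killer and innate lymphoid cells 3 reached 50 CPM in either type, Klrd1 and Klrk1 higher and the interleukin-7 receptor Il7r lower in all 9 libraries (-0.88, with 116 against 216 CPM). The killer-cell genes Ncr1, Gzmb, Prf1 and Eomes had a median of 0.0 CPM in both types, and T cell markers summed to 0.0 to 70.1 CPM per library. Cd209a had a log2 ratio of 4.24, the lectin Clec10a 3.09, the interleukin-1 decoy receptor Il1r2 3.06 and Ifitm1 3.50. In the list of type 2 and monocyte-derived dendritic cells, 4 of 6 measured genes were higher in all 9 libraries and Sirpa, an inhibitory receptor, was lower in all (-0.89). The other leading genes were Gpr171, Kctd14, Cd72, Htra3 and Ccnd2, with medians of 3.09 to 3.43. Levels of Cd7, Klrk1 and the other genes with few UMIs in macrophages depend on the 1 CPM added.

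The lower side holds genes of debris-handling macrophages and some chemokines. Gpnmb, a glycoprotein of lipid-laden macrophages, had a log2 ratio of -5.38, with 16.7 CPM against 1086. Spp1 (osteopontin) had -4.94, with 417 CPM against 18839. The monocyte attractant Ccl2 had -5.35 and Ccl12 -4.39, the fatty acid carrier Fabp4 -4.86, and haem oxygenase Hmox1 -5.09. Pf4, Slpi, Gdf15 and Igf1 completed the 10 lowest, from -5.29 to -4.20. Of 11 measured chemokine ligands 4 were lower and 2 higher in all 9 libraries (Ccl5 at 2.24 and Cxcl16 at 0.69). Of 15 genes for lipid handling and repair, 13 were lower in all 9 libraries and none was higher in all (list median -3.32). Of 10 measured macrophage markers, 8 were lower in all 9 (median -2.71). The list for class I presentation, with 11 of 13 genes measured, had a median of 0.33. For co-stimulation 5 of 12 genes were measured (median -0.11) and for the cell cycle 3 of 18, too few to describe those lists. With 5 CPM added in place of 1, 9 of the 30 genes named by rule moved by more than their spread over libraries, all of them toward 0.

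The dendritic-like cells were not uniform in class II. The UMIs of H2-Aa, H2-Ab1, H2-Eb1 and Cd74 together made up a median of 4.98% of a cell's UMIs, from 0.0979% at the 10th to 9.52% at the 90th percentile. The macrophage median was 0.0%, with 0.758% at the 90th percentile. Among dendritic-like cells, 188 (6.93%) had no UMI of the 4 genes. A total of 326 (12%) had at most 0.25% of their UMIs from them, and 59 more lay between 0.25% and 0.5%. The median library value was highest late: 8.85% in D10_infiltrating 2, 8.4% and 9.05% in D10_mixed 1 and 2 and 9.13% in D21_infiltrating 1, against 2.94% to 5.88% in the 6 fitted libraries of days 1 to 3. D10_infiltrating 1 was the exception, at 2.54%.

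Small groups of cells carried the markers of other dendritic types. The cuts that define them were set after the values were seen, and they give ranges rather than types. Mature migratory dendritic cells, which travel to lymph nodes by the receptor Ccr7, were looked for as cells with at least 2 of Ccr7, Fscn1 and Cacnb3. There were 90 (3.32%), against 3 of 12841 macrophages (0.0234%). Outside the genes of the cut, the largest ratios over 3 libraries were those of Ccl5 (8259 CPM against 81.0 in the other dendritic-like cells), Serpinb6b (598 against 1.2), Fabp5 (5247 against 146), Tbc1d4 (1204 against 12.9) and Gadd45b (954 against 22.5). Further down stood Ccl22 (399 against 4.85) and the maturation marker Cd83 (982 against 39.7). Of the 90 cells, 20 had exactly 2 of the markers, and 89 further cells had 1.

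Conventional type 1 dendritic cells, the cross-presenting subset, were looked for as cells with at least 2 of Xcr1, Clec9a, Gcsam and Itgae. There were 32 (1.18%), led by Snx22, Ifi205, Batf3 (261 CPM against 21.5), Irf8 (998 against 118), Tlr3 and Naaa over 4 libraries. Of these cells 20 lay exactly at the cut, and 185 more had 1 marker. Batf3 and Irf8 are the transcription factors on which this subset depends. Cells with at least 3 of the plasmacytoid markers Siglech, Ccr9, Cox6a2, Pacsin1 and Ly6d numbered 56 (2.06%). Of these 27 lay exactly at the cut, and 110 more had 1 marker fewer. The largest ratios over 3 libraries were those of Lefty1, Atp1b1, Cd8b1, Cd8a, Apod and Sct. Further down stood Irf8 (1376 against 109) and Bcl11a (654 against 60.9), which act in the plasmacytoid lineage. Their class II share was 0.0673% of UMIs, against 5.08% in the rest. None of the 3 groups shared a cell with another.

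Another group leaned to macrophages. In 280 cells (10.3%) at least 5 of 11 macrophage markers had a UMI, as in 80.7% of macrophages, and 164 more cells had 4. They were led by Chil3, Tmem37, Trem2, C5ar1 and Ctsl, with Lyz2 (8349 CPM against 2101) further down, and their class II share was 2.97%. No doublet caller was run, so cells that share a droplet are not separated from cells that express both sets. Their median was 12203 UMIs, against 11270 in the rest. In all, 458 dendritic-like cells (16.9%) fell in at least 1 of the 4 groups. Of the 326 cells low in class II, 36 were in the plasmacytoid group, 25 in the migratory group and 72 in the macrophage-marker group, and 193 (59.2%) were in none.

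**Figure D2:**
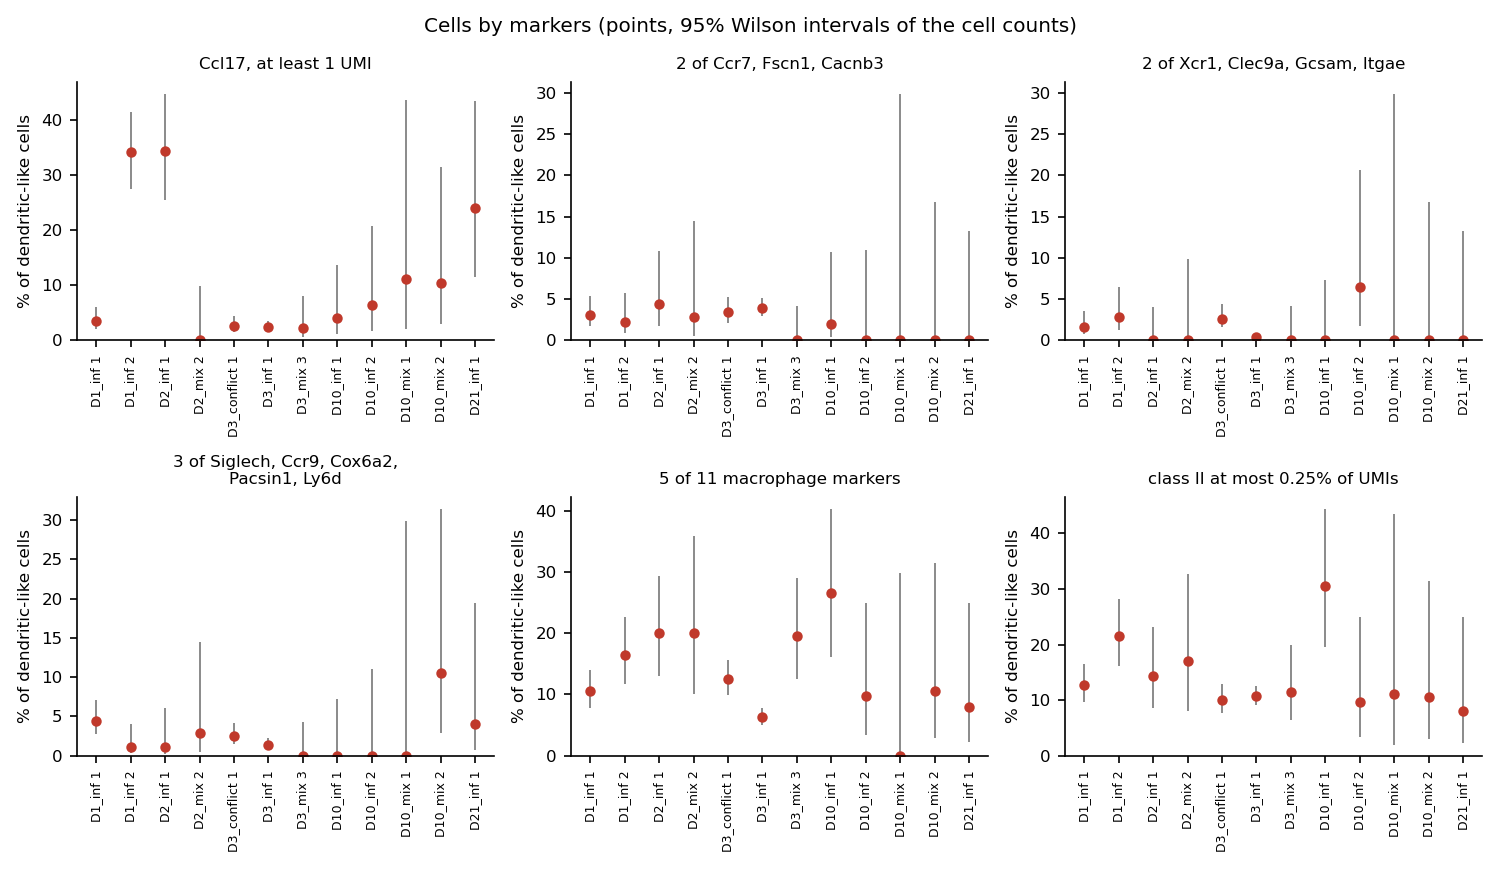
Each panel gives the percent of dendritic-like cells in 1 marker class per library, with 95% Wilson intervals that cover counting error only. Libraries run in order of time on the horizontal axis. Cells with a UMI of Ccl17 make up 34.1% and 34.4% of D1_infiltrating 2 and D2_infiltrating 1 and 24.0% of D21_infiltrating 1, and 0.0% to 11.1% of the other libraries.

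Ccl17, a chemokine that draws T cells by the receptor Ccr4, was divided sharply between libraries. It had 1166 CPM in D1_infiltrating 2 and 1298 in D2_infiltrating 1, and 0.0 to 35.8 CPM in the other 7 fitted libraries. The replicate library of the same day, D1_infiltrating 1, had 15.3. Both high libraries drew on many cells: 60 of 176 and 31 of 90 cells had a UMI, and no cell held more than 296 and 344 of the 1801 and 1488 UMIs. Macrophages had 11.6 and 7.13 CPM there, with a UMI in 1.8% and 2.1% of cells. Both libraries also had higher Mgl2 (240 and 188 CPM), the lectin of Ccl17-producing dendritic cells, than the other 4 fitted libraries of days 1 to 3 (5.19 to 44.7). In the 3 late fitted libraries, with little Ccl17, Mgl2 had 45.7 CPM in D10_infiltrating 1, 190 in D10_infiltrating 2 and 394 in D21_infiltrating 1. The 2 libraries share a sequencing pool and the male sex code of the deposited table, and their pool also holds D1_infiltrating 1 and D3_conflict 1 (5.7 CPM of Ccl17). Of all 2712 cells, 166 had a UMI of Ccl17. In the 6 libraries with at least 5 such cells, they were compared with the other dendritic-like cells. As medians of these libraries they had more Mgl2 (374 CPM against 35.1), Clec10a (389 against 138) and Il7r (233 against 97.7). The median ratio within a library was on the same side for each (log2 ratio 2.78, 1.33 and 1.13).

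Dendritic-like cells were first counted against macrophages, dendritic-like and neutrophil-like cells together, since the sort sets the number of microglia. In the infiltrating libraries they made up 19.9% and 6.37% at day 1, 11.4% at day 2, 43.7% at day 3, 8.19% and 21.1% at day 10 and 21.9% at day 21. In the mixed libraries with at least 50 such cells they were 0.0% at day 1, 0.0% and 4.79% at day 2, 2.8% at day 3, 14.5% and 21.8% at day 10 and 2.5% at day 21. The 2 libraries of day 3 were the highest and among the lowest of all. Over the 12 infiltrating and mixed libraries of days 1 to 10 the days did not differ beyond their spread (F = 1.05, exact permutation p = 0.413). The permutation did not keep the sorts apart, so this spread includes that between infiltrating and mixed libraries. The mean was 16.4% ± 6.39 (SD, n = 4) at day 10 and 11.1% ± 14.7 (SD, n = 8) on days 1 to 3, and the difference of 5.29 percentage points had a two-sided exact permutation p = 0.554.

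Without D3_mixed 3, which leaves D3_infiltrating 1 (43.7%) as the only library of day 3, F was 7.12 with an exact permutation p = 0.0192. The direction of the day 10 difference turned with the denominator, to -4.09 points over all cells (exact permutation p = 0.689) and to -5.7 in infiltrating libraries alone (p = 0.8, exact). The 2 control libraries had no dendritic-like cell among 1887 cells, which allows a share of up to 0.159% of cells with this code. Resident libraries, which held mainly microglia, had 12 of 1711 cells at day 2, 6 of 159 and 11 of 1060 at day 3, and none of 775 at day 10.

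**Figure D3:**
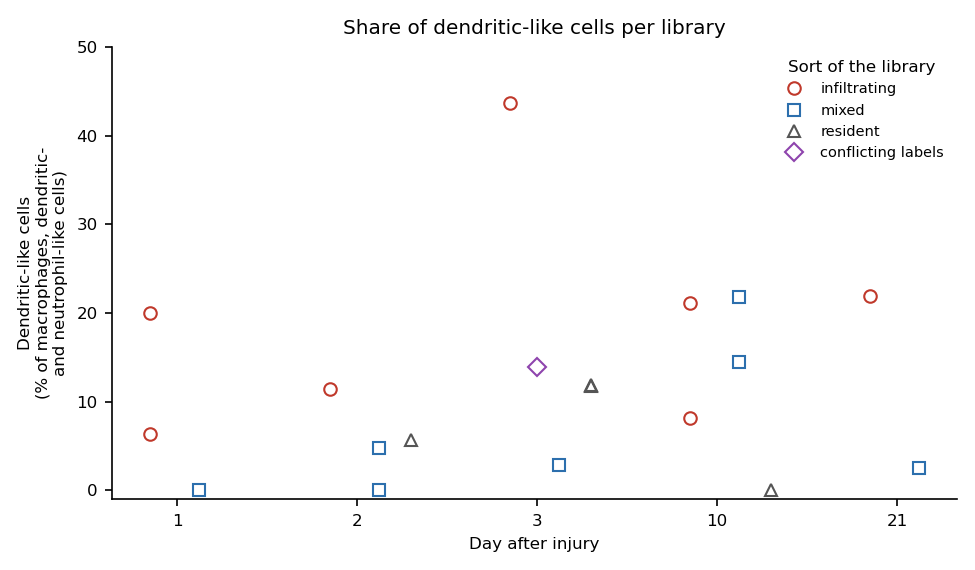
The vertical axis is the percent of dendritic-like cells among macrophages, dendritic-like and neutrophil-like cells, and the horizontal axis the day after injury. Each point is 1 library with at least 50 such cells, and its shape gives the sort. Infiltrating libraries run from 6.37% to 43.7%, and the 4 infiltrating and mixed libraries of day 10 from 8.19% to 21.8%.

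Changes with time were tested on summed counts of dendritic-like cells with edgeR's quasi-likelihood test and Benjamini-Hochberg adjustment over 7114 genes, at an adjusted p of 0.05. Day 2 against day 1 gave no call (0.0%, with 32 genes at an unadjusted p under 0.05). Day 3 against day 1 gave 2 calls (0.0281%), both lower at day 3. Day 10 against day 1 gave none (0.0%, 725 unadjusted), and day 10 against day 3 gave none (0.0%, 309 unadjusted). DESeq2 called 0 for day 3 against day 1, 80 for day 10 against day 1 and 12 for day 10 against day 3.

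Both day 3 calls rest on few cells. Igkc, the immunoglobulin kappa chain, had 17.6 and 142 CPM in D1_infiltrating 1 and 2, 0.0646 in D3_infiltrating 1 and 0.0 in D3_mixed 3. Those are 294 UMIs at day 1, held by 4 and 3 cells, against 1 UMI at day 3 (811-fold lower, counting interval 144 to 32146, edgeR adjusted p = 0.00225). S100a9, a calcium-binding protein abundant in neutrophils, had 45.8 and 71.9 CPM at day 1 against 0.129 and 0.0 at day 3, or 303 UMIs against 2 (418-fold lower, 115 to 3467, edgeR adjusted p = 0.00452). Neutrophil-like cells numbered 188 and 702 in the 2 libraries of day 1 and 11 and 1 in those of day 3. D3_conflict 1, with 897 neutrophil-like cells, had 64.6 CPM of S100a9, while D2_infiltrating 1, with 223, had none. The part of neutrophil RNA in this result was not tested. No gene was called with DESeq2, with a pool term, with D3_conflict 1 added, or without D1_infiltrating 2 or D3_infiltrating 1, and 7 or 8 were called without D1_infiltrating 1 or D2_mixed 2.

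Day 10 was then set against days 1, 2 and 3 together, a contrast chosen after the data were seen. It called 11 genes (0.155%), 8 higher and 3 lower at day 10. Among those higher were 2 surface lectins and carriers of iron and cholesterol, and among those lower an inhibitor of matrix proteases and a redox enzyme. Days 1 to 3 are given below by their lowest, median and highest of 6 libraries and day 10 by D10_infiltrating 1 and 2.

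Cd209a, the mouse lectin related to DC-SIGN, had 55.9, 102 and 200 CPM on days 1 to 3, and 356 and 547 at day 10. The groups did not overlap (log2 change 2.48, SE 0.39, edgeR adjusted p = 0.0351). The 2 small mixed libraries of day 10 outside the fit had 699 and 763 CPM, and day 21 had 700. A UMI of Cd209a was found in 36.7% and 74.2% of dendritic-like cells at day 10, in 77.8% and 73.7% in the small mixed libraries and in 68.0% at day 21, against 10.3% to 43.3% on days 1 to 3 and at most 4.25% of macrophages in any of these libraries. D10_infiltrating 1 lay within the early range by this measure. In macrophages Cd209a stood at 0.317 to 17.5 CPM on days 1 to 3 and 17.8 and 21.5 at day 10.

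Clec12a, an inhibitory lectin receptor that senses dead cells, had 22.7, 27.1 and 81.1 CPM on days 1 to 3, and 257 and 135 at day 10 (log2 change 2.72, SE 0.35, edgeR adjusted p = 0.0188). The groups did not overlap, and all 3 later libraries outside the contrast were high too, at 142, 172 and 186. A UMI of it was found in 73.5% and 87.1% of cells at day 10 and in 15.9% to 32.3% in the 6 earlier libraries. In macrophages Clec12a went the same way, from 17.7 to 72.6 CPM on days 1 to 3 to 194 and 217 at day 10.

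Trf, the iron carrier transferrin, had 33.5, 59.8 and 82.9 CPM, then 223 and 220 (log2 change 2.21, SE 0.35, edgeR adjusted p = 0.0389). Abcg1, which exports cholesterol, had 31.4, 47.1 and 58.9 CPM, then 131 and 140 (1.96, SE 0.31, adjusted p = 0.0351 by edgeR). For both, day 10 lay clear of all 6 earlier libraries. Grcc10 had 20.9, 27.6 and 81.1 CPM, then 109 and 142 (2.28, SE 0.35, edgeR adjusted p = 0.0351). The tetraspanin Cd81 was called as well, at 2.6, 15.0 and 55.9 CPM, then 239 and 49.9 (3.05, SE 0.50, edgeR adjusted p = 0.0431). Its groups overlapped, and it stood at 17.7, 0.0 and 0.0 CPM in D10_mixed 1, D10_mixed 2 and D21_infiltrating 1.

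Timp1, an inhibitor of matrix metalloproteinases, had 41.9, 135 and 207 CPM on days 1 to 3, and 9.94 and 2.5 at day 10 (log2 change -4.0, SE 0.59, edgeR adjusted p = 0.0351). The day 10 values are 5 and 1 UMIs. Txnrd1, a thioredoxin reductase, had 81.8, 106 and 161 CPM, then 11.9 and 9.99 (-2.86, SE 0.44, adjusted p = 0.0351 by edgeR). Emp1, a membrane protein, had 39.1, 66.7 and 93.4 CPM, then 3.98 and 7.49 (-3.05, SE 0.51, edgeR adjusted p = 0.0431). None of the 3 overlapped between the groups. All were low at day 21 as well, at 3.26, 9.77 and 9.77 CPM.

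**Figure D4:**
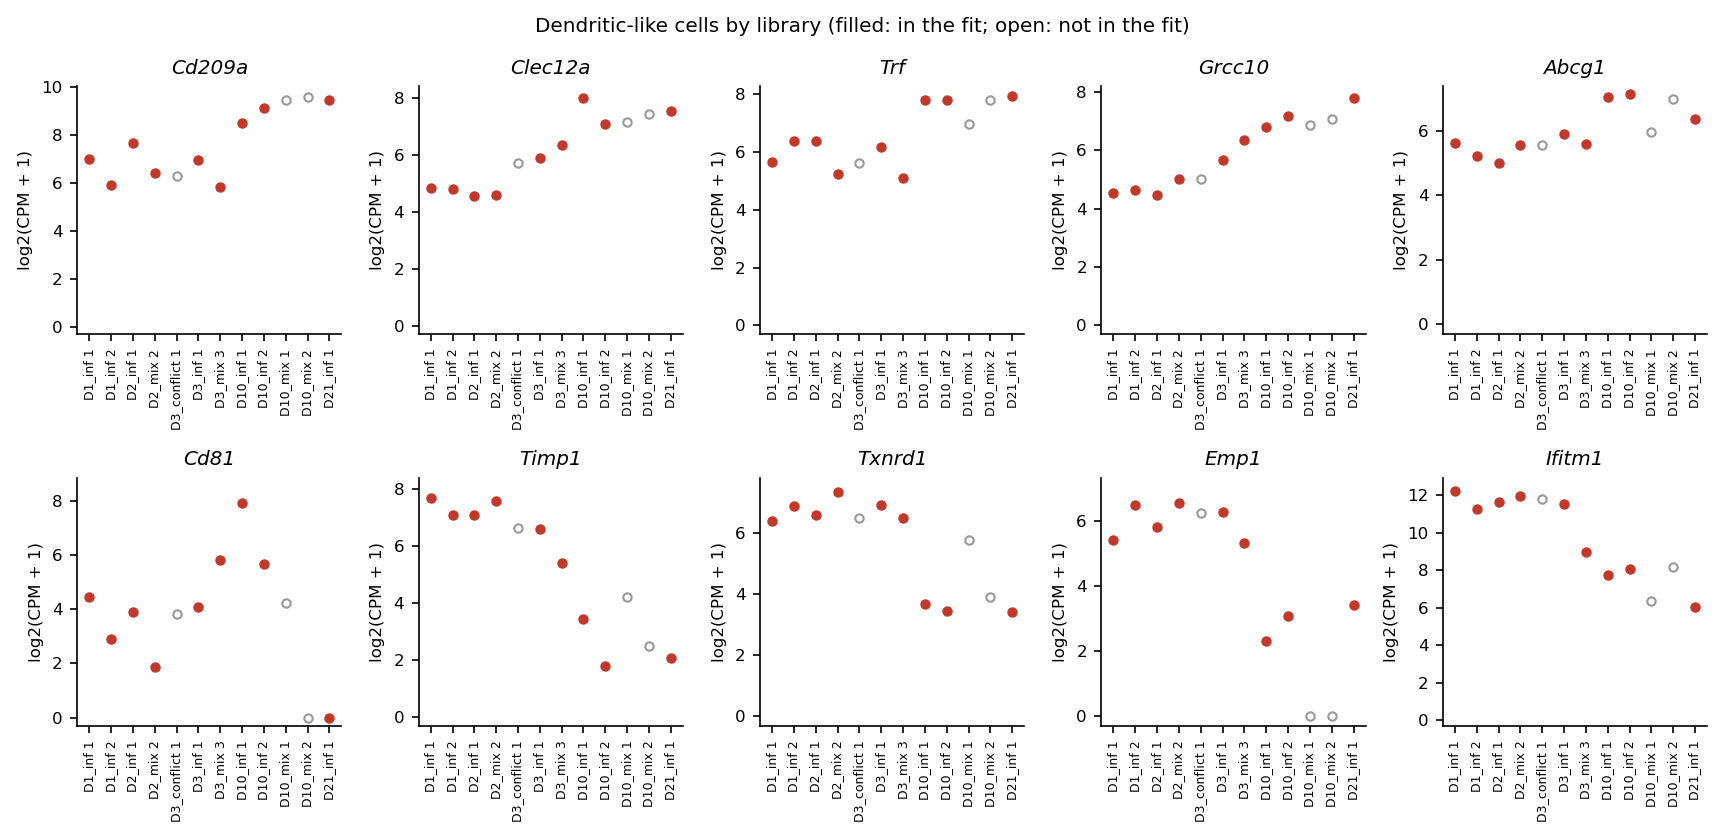
Each panel is 1 gene, with log2(CPM + 1) of summed dendritic-like cells on the vertical axis and libraries in order of time on the horizontal axis. Filled points are libraries in the fit and open points are libraries outside it. Cd209a and Clec12a are higher in all 5 libraries of days 10 and 21 than in the earlier ones, Timp1 is lower in all 5, Txnrd1 and Emp1 are lower in the late than in the early filled points, and Cd81 is highest in D10_infiltrating 1 (239 CPM).

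Some libraries of different days share a sequencing pool. In the pool of D21_infiltrating 1, Cd209a had 83.0 and 55.9 CPM in D2_mixed 2 and D3_mixed 3, and 700 at day 21, while Cd81 had 2.6 and 55.9, and 0.0 at day 21. In the pool of D10_infiltrating 1, the 12 cells of D2_resident 1 had 42.7 CPM of Cd209a, 68.4 of Clec12a, 68.4 of Trf and 171 of Timp1, against 356, 257, 223 and 9.94. Grcc10 (94.0 against 109 CPM) and Emp1 (8.55 against 3.98) differed less there. In macrophages Trf was higher late as well, at 53.3 to 180 CPM on days 1 to 3 and 498 in both libraries of day 10. The difference between the types in the change from day 1 to day 10 had an edgeR adjusted p of 0.655 for Cd209a, 0.777 for Clec12a, 0.921 for Trf, 0.582 for Timp1 and 0.544 for Txnrd1, which shows neither a difference nor its absence. The ribosomal gene Rps10 and the predicted gene Gm11808 were also called, and they are named here outside the rule. Rps10 had 361 to 821 CPM on days 1 to 3 and 2516 and 2035 at day 10, and in macrophages 249 to 533, then 1626 and 1300.

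The calls need both day 10 libraries of the fit. No gene was called without D10_infiltrating 1 or without D10_infiltrating 2 (622 and 322 genes at an unadjusted p under 0.05), while the log2 change of Cd209a was 3.23 and 1.33 and that of Clec12a 2.33 and 3.12. There were 101 calls without D3_mixed 3, 50 without D1_infiltrating 1, 25 without D3_infiltrating 1 and 98 by DESeq2. Macrophage markers moved with day 10: their summed level in dendritic-like cells was 1124 to 6027 CPM on days 1 to 3, 19128 and 9307 at day 10 and 766 at day 21. Most of it is Apoe, at 17883 CPM in 27 of 49 cells of D10_infiltrating 1 and 8817 in 3 of 31 cells of D10_infiltrating 2. Of 10 such markers tested, 3 had a positive and 7 a negative log2 change, and none was called. Leaving the cells of the macrophage-marker group out of the fitted libraries gave 35 calls, against 11 with them. With at least 10 cells per library, which adds D10_mixed 2, there were 126. Microglia markers summed to 244 to 913 CPM on days 1 to 3 and 1730 and 856 at day 10, and their part was not tested.

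Lists showed tendencies without calls. Read against a median change of -0.03 over all genes, none of 15 interferon-stimulated genes was called, 14 had a negative log2 change and their median was -1.71. Among them, Isg15, a ubiquitin-like antiviral protein, had 173 to 739 CPM on days 1 to 3 and 113 and 52.4 at day 10 (edgeR adjusted p = 0.244). Ifitm1 had 506 CPM in D3_mixed 3 and 2424 to 4725 in the other 5 early libraries, and 213 and 267 at day 10 (log2 change -3.18, SE 0.64, edgeR adjusted p = 0.068). Of 14 genes of glycolysis and hypoxia none was called and 12 were negative (median -0.80). Of 9 monocyte markers none was called and 8 were negative (median -1.77).

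In the class II pathway none of 13 genes was called and 12 were positive (median 0.67). H2-Ob had 18.1 to 45.1 CPM early, then 29.8 and 162 (log2 change 1.95, SE 0.48, edgeR adjusted p = 0.139), and 212, 195 and 150 in D10_mixed 1 and 2 and D21_infiltrating 1. H2-Oa had 44.7 to 185 CPM, then 105 and 627 (1.85, SE 0.55, edgeR adjusted p = 0.216). For both, D10_infiltrating 1 lay within the early range and D10_infiltrating 2 above it. For H2-Aa it was 0.86 (SE 0.40, edgeR adjusted p = 0.491). Cd86, a co-stimulatory ligand, had 58.7 to 162 CPM early and 47.7 and 27.5 at day 10 (-1.55, SE 0.41, edgeR adjusted p = 0.159). Of the 8 markers that check the label, 1 (Cd209a) was called, 7 were positive and Ccl17 was negative, beside 0.155% of all genes called.

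Whether dendritic-like cells and macrophages changed differently was tested by the interaction of cell type and day, with the library as a block. The block absorbs effects of sort, sex and pool that both types share. A pool effect that differs between the types cannot be told apart from day 10. Over 10940 genes, the change from day 1 to day 10 differed for 43 (0.393%), 13 with a higher and 30 with a lower change in dendritic-like cells. For day 3 to day 10 it differed for 25 (0.229%), 14 higher and 11 lower. For day 1 to day 3 no gene was called (0.0%, 325 at an unadjusted p under 0.05, and 0 to 64 under other settings). The 2 comparisons with day 10 share its libraries.

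For 4 of the called genes, Hmox1, Plin2, Prdx6 and Por, macrophages were far lower at day 10 than at day 1, and dendritic-like cells less so or not. Apoe, the lipid carrier, went the other way: in macrophages it had 4190 and 7221 CPM at day 1 and 111997 and 71968 at day 10, and its interaction was not called (edgeR adjusted p = 0.698). Hmox1, which breaks down haem, had 3053 and 3792 CPM in macrophages of day 1, 1391 and 1663 at day 3, and 132 and 129 at day 10. In dendritic-like cells it had 88.9 and 105, 25.7 and 81.1, and 49.7 and 12.5. The difference in change from day 1 was 3.29 on the log2 scale (SE 0.54, edgeR adjusted p = 0.0123). The gap between the types was narrower at day 10, and the macrophage values differed more between the days.

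Plin2, the coat protein of lipid droplets, had 874 and 1403 CPM in macrophages of day 1 and 208 and 185 at day 10. In dendritic-like cells the values were 147 and 198, then 171 and 142 (2.60, SE 0.35, edgeR adjusted p = 0.00285). Prdx6, a peroxidase of membrane lipids, had 687 and 1227, then 135 and 107 in macrophages, and 293 and 259, then 203 and 240 in dendritic-like cells (2.81, SE 0.39, edgeR adjusted p = 0.00286). Por, the reductase of P450 enzymes, had 248 and 241, then 27.0 and 46.3 in macrophages, and 36.7 and 35.6, then 27.8 and 59.9 in dendritic-like cells (3.20, SE 0.45, edgeR adjusted p = 0.00317). For these 3 genes the macrophages of day 10 lay far below those of day 1, and the dendritic-like values lay close together.

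Psap and Fth1 were called against day 3. Psap, the precursor of lysosomal saposins, had 4845 and 7089 CPM in macrophages of day 3 and 2783 and 3080 at day 10. In dendritic-like cells it had 455 and 920, then 1669 and 1148 (2.37, SE 0.32, edgeR adjusted p = 0.00697). Fth1, the ferritin heavy chain that stores iron, had 26306 and 53075, then 20000 and 13131 in macrophages, and 2503 and 9069, then 9827 and 6513 in dendritic-like cells (2.22, SE 0.35, edgeR adjusted p = 0.0279). The other genes of this direction named by rule were Mcemp1, Eps8, Atf3, Nceh1, Jun, Homer3, Sema4a and Rhob, with differences of 1.94 to 3.04, and Mmp12 and Lyz1, which rest on few UMIs.

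Other genes were higher in macrophages of day 10 than of day 1, and not or less so in dendritic-like cells. C1qa, a chain of the first complement component, had 242 and 248 CPM in macrophages of day 1, 687 and 2286 at day 3 and 4668 and 3993 at day 10. In dendritic-like cells it had 79.2 and 54.4, 124 and 470, and 47.7 and 30.0. The difference in change from day 1 was -4.69 (SE 0.51, edgeR adjusted p = 0.000879). Its partners C1qb and C1qc were not called (edgeR adjusted p = 0.0898 and 0.0646). Microglia markers were higher late in the same macrophage sums, at 420 and 319 CPM for the 11 genes together at day 1 and 3807 and 3715 at day 10, and their part in the C1qa result was not tested.

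Pmepa1, a membrane protein that dampens TGF-beta signals, had 162 and 169 CPM in macrophages of day 1 and 610 and 696 at day 10, and 385 and 445, then 215 and 180 in dendritic-like cells (-2.81, SE 0.31, edgeR adjusted p = 0.000879). It was higher in dendritic-like cells at day 1 and higher in macrophages at day 10. Ppfia4, of the liprin family, had 20.3 and 4.99, then 119 and 205 in macrophages, and 91.3 and 49.2, then 133 and 180 in dendritic-like cells (-2.42, SE 0.37, edgeR adjusted p = 0.00709). Hist1h1b, a linker histone of dividing cells, had 6.87 and 2.37, then 31.0 and 223 in macrophages, and 21.7 and 10.4, then 3.98 and 22.5 in dendritic-like cells, the last being 2 and 9 UMIs (-4.80, SE 0.54, edgeR adjusted p = 0.000879). Lag3, Cox6a2, Gpr34, Plxdc2, Pxdc1, Igfbp4, Il4i1, Msrb2, Rapsn and Eno3 rest on few UMIs in 1 of the types on 1 of the days, and Ltc4s, Lpcat2, Pou2f2 and Mef2c had differences of -2.67 to -1.59 from day 3.

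By list, the interaction from day 1 to day 10 called 1 of 14 genes of glycolysis and hypoxia (Hmox1, 12 positive, median 1.20), 1 of 15 of lipid handling (Plin2, 11 positive, median 0.61) and 2 of 16 immediate early genes (Atf3 and Jun, 12 positive, median 0.73). Over all genes 0.393% were called and the median was -0.08. It called 2 of 10 microglia markers (Gpr34 and Cx3cr1), both lower, and all 10 were negative (median -2.26). None of 18 cell cycle genes was called, 17 were negative and their median was -1.71. None of 15 class II genes was called, 6 positive and 9 negative (median -0.20).

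Without D10_infiltrating 1 there were 12 calls against day 1 and none against day 3 (737 at an unadjusted p under 0.05). The difference for Plin2 was then 2.68 against day 1 and 2.81 against day 3, as large as with the library, with an edgeR adjusted p of 0.0534 and 0.124. For Hmox1 it was 2.13 against day 1 (edgeR adjusted p = 0.538). Against day 1 and day 3 there were 196 and 154 calls without D3_mixed 3, 115 and 40 without D3_infiltrating 1, 14 and 5 without D1_infiltrating 1, and 24 and 19 without D1_infiltrating 2. Against day 3 there were 38 without D10_infiltrating 2, 7 without either D2_infiltrating 1 or D2_mixed 2, and 55 by DESeq2.

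**Figure D5:**
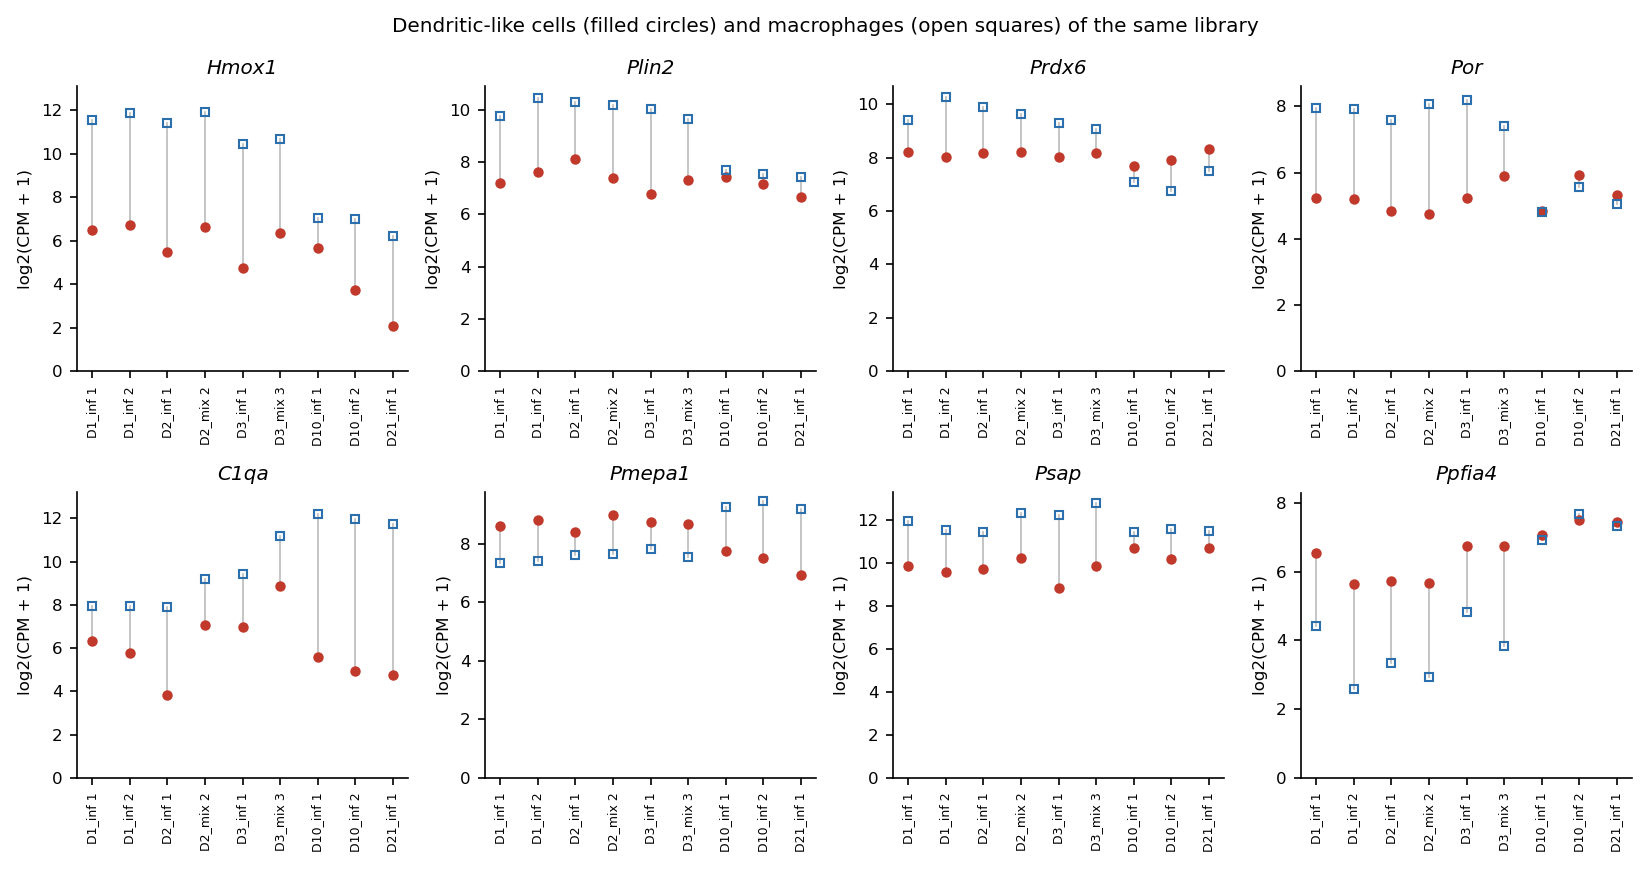
Each panel is 1 gene, with log2(CPM + 1) on the vertical axis and the 9 fitted libraries in order of time on the horizontal axis. Filled circles are dendritic-like cells and open squares macrophages, and a line joins the 2 values of a library. The gap is narrower at day 10 for Hmox1, Plin2, Por, Ppfia4 and Psap, wider for C1qa, and turns over for Prdx6 and Pmepa1. Por also turns over, by a small margin, and Ppfia4 does so in D10_infiltrating 2. Hmox1 is still 12.5 against 129 CPM in D10_infiltrating 2.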

How the data were processed

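The count files hold whole UMI counts per gene and cell, which the authors deposited for 25 libraries. Cell Ranger 3.1.0 and the build GRCm38 (mm10) are named per the submitters' processing notes. Cell types, clusters, the sequencing pool, the sex code and the mitochondrial percent of each cell were taken as the authors deposited them. Cells were joined to the count matrices by library and barcode, and the counts of all 30958 cells summed to the deposited totals.

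Counts were summed over the cells of 1 type in each library with at least 20 such cells. Sums were tested with edgeR 4.0.16 (quasi-likelihood test, TMM scaling, expression filter, terms for day and sex, Benjamini-Hochberg adjustment over all genes tested), and with the library as a block where the cell types were compared. DESeq2 1.42.0 was an alternative. The edgeR fits were tested on simulated data. Shares were compared by exact permutation over libraries, and intervals of single shares are 95% Wilson intervals. Intervals and limits cover counting error only.

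For each comparison over time the genes named are the 10 called in each direction with the largest log2 changes, among genes with a mean of at least 20 CPM on 1 of the days and leaving out ribosomal, mitochondrial and predicted genes. For levels they are the 20 highest and 10 lowest median ratios of the same sign in every library. Other genes named are list members or leading genes of a marker group. The members and lists were chosen with earlier results of these data known. D3_conflict 1, resident and control libraries and those with fewer cells entered no fit.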

Additional observations from a re-analysis of the deposited data

Results flagged for a closer look

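Dendritic-like cells were also found in libraries sorted as resident, which the comparisons over time do not use. They were 12 of 1711 cells in D2_resident 1 (0.701%, 95% Wilson interval 0.402% to 1.22%), 6 of 159 in D3_resident 1 (3.77%, 1.74% to 7.99%) and 11 of 1060 in D3_resident 2 (1.04%, 0.58% to 1.85%). The resident library of day 10 had none of 775 cells (upper limit 0.493%). Each of the 3 shares is above the limit of 0.159% that the 2 control libraries allow together. Of these, Ctrl_mixed 1 has 1429 cells of another sort and Ctrl_resident 1 only 458, and all carry code 1. The resident control alone would allow a higher limit, which was not calculated. The 12 cells of D2_resident 1 had 11634 CPM of H2-Aa and 607 of Klrd1, and the 11 of D3_resident 2 had 5944 and 518, all within or near the range of the infiltrating libraries.

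The change with time differed between dendritic-like cells and macrophages, by edgeR's interaction test, for 43 genes from day 1 to day 10 and for 25 genes from day 3 to day 10. The haem oxygenase gene Hmox1, the lipid droplet gene Plin2 and the reductase gene Por were among those with a higher change in dendritic-like cells in both comparisons. The complement gene C1qa and Pmepa1 were among those with a lower change in both.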

How the results depend on the processing

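Counts of called genes in dendritic-like cells are given for day 3, day 10 against day 1, day 10 against day 3, and day 10 against days 1 to 3. DESeq2 called 0, 80, 12 and 98, and no expression filter gave 68, 276, 60 and 261, with 3 for day 2 against day 1. At least 10 cells per library gave 1, 62, none and 126. At least 50 cells gave 7 for day 2 and 52 for day 3, and left no library of day 10. Without a sex term there were 1, 6, none and 66. A sort term gave 4 for day 10 against day 1 and 28 against days 1 to 3, and a pool term 0 for day 3. Infiltrating libraries alone gave 36, 168, 28 and 169, with 4 for day 2. With D3_conflict 1 the counts were 0, 6, 1 and 70. The deposited sex code, chosen after seeing the data like the next setting, gave 3, 1 and 4 for the day 10 comparisons and 1 for day 2. Leaving out macrophage-marker cells, in the libraries of the main fit and with at least 10 cells left in each, gave 23 for day 10 against day 1. It gave 35 against days 1 to 3 and 1 for day 2. For the difference between cell types, no filter gave 328 against day 1, 249 for day 10 against day 3 and 64 for day 3 against day 1. For day 10 against day 3 DESeq2 gave 55, D3_conflict 1 gave 78 and at least 10 cells 15, and at least 50 cells gave 1 for day 3 against day 1. The cause of these shifts was not tested.

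Leaving out 1 library at a time gave 0 to 3 calls for day 2, 0 to 8 for day 3, 0 to 59 for day 10 against day 1, 0 to 1 against day 3 and 0 to 101 against days 1 to 3. For the difference between cell types it gave 12 to 196, 0 to 154 and 0 to 44. The day 10 difference in share was -4.09 points over all cells and -5.7 in infiltrating libraries alone, and 3.48 to 9.94 with 1 library left out (F 0.679 to 7.12). None of the genes named by rule in the day 3, day 10 against days 1 to 3 and cell type comparisons changed direction under the settings run for it. Rps10, Gm11808, the uncalled list members and the values of Pmepa1, Ppfia4 and Cx3cr1 against day 1 were not compared across settings. No paired analysis was possible because the numbers of the infiltrating libraries only name them, and too few mixed libraries with a number hold 20 dendritic-like cells. Small cell numbers at day 10 (49 and 31 cells in the fit) limit the counts behind its values, and genes under about 10 CPM there rest on 5 UMIs or fewer.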

Other observations

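Some high values among the dendritic-like cells rest on 1 cell or a few cells. Mcpt8, a protease of basophils, had 419 UMIs in 1 of 19 cells of D10_mixed 2, and 3 UMIs at most in any other library. In D1_infiltrating 2, 1 cell held 137 of the 220 UMIs of Igkc. In D10_infiltrating 2, 3 cells held the 3532 UMIs of Apoe, 1 of them 1515.

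In the dendritic-like cells of D3_mixed 3, Klrd1 had a UMI in 16.1% of cells, against 36.7% to 83.9% in the other 8 fitted libraries. The median depth there was 3449 UMIs. The CPM of Klrd1, which is scaled to depth, was also the lowest of the fitted libraries, and the part of depth was not tested.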
